A study of Mus musculus with 2 samples.

Results

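The deep gene-body peaks of KMT2D are the peaks that sat far inside genes. A peak belonged to them when its summit lay within a protein-coding gene and more than 20 kb from the nearest end of any protein-coding gene. They numbered 575 of the 3706 peaks on chromosomes 1 to 19, X and Y, which is 15.5% (exact binomial 95% interval 14.4 to 16.7). The study precipitated chromatin with an antibody to KMT2D (1 library) and set it against input chromatin (1 library). Both came from a wild-type clone of HT22, an immortalised mouse hippocampal line, grown to 70% confluency, so a single clone stands for the line. The study also describes cells with the SET domain of KMT2D deleted by CRISPR-Cas9, and these are not analysed here. Neither library had a replicate, so no test was possible between ChIP and input or between classes of peaks, and every interval covers counting error only.

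KMT2D, also called MLL4, is a histone methyltransferase that places methyl groups on lysine 4 of histone H3 and is best known for monomethylation at enhancers. It works in a complex with WDR5, RBBP5, ASH2L and DPY30 and with the demethylase UTX. Enhancers often lie within long introns, and many long genes also carry internal promoters that give rise to shorter transcripts, so a peak deep inside a gene can lie at either kind of element. In humans, mutations of KMT2D cause Kabuki syndrome, which affects growth, the skeleton and learning.

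Some deep peaks sat at annotated internal starts, and CpG before these starts ranged from frequent to sparse. Whether the starts act as promoters in HT22 cells was not tested. Each line gives the 250 bases before an annotated internal start whose peak summit lay within 500 bp, read 5′ to 3′ on the strand of the gene, from RefSeq on GRCm38.p6, the same build as mm10. Capitals mark CpG dinucleotides. These 4 starts are shown because CpG is frequent before them, with 10 to 36 in the 250 bases.
Palld, chr8:61591140-61591389, minus strand: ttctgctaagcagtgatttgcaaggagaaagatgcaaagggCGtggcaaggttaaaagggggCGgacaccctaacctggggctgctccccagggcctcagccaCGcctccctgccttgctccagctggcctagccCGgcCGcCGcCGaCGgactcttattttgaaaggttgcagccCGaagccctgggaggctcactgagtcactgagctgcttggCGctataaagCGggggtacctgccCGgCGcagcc
Mia2, chr12:59131231-59131480, plus strand: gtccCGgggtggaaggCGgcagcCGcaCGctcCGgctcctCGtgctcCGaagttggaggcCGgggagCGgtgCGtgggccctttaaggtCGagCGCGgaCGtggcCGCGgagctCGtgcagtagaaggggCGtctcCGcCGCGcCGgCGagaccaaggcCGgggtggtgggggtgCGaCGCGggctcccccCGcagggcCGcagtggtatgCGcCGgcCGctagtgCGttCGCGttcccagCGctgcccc
Phldb2, chr16:45844379-45844628, minus strand: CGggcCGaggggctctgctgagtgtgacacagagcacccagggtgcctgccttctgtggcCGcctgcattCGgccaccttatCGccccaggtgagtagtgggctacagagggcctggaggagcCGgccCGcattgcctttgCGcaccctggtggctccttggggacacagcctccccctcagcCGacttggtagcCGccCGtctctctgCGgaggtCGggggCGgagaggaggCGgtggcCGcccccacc
Epb41l1, chr2:156475284-156475533, plus strand: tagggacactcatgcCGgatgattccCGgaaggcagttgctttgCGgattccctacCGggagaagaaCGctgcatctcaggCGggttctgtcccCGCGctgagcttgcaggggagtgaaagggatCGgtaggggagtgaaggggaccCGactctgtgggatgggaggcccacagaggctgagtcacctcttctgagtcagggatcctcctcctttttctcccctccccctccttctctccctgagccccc

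The next 3 starts are shown because a KMT2D summit lay within 106 bp of each although CpG was sparse, with 2 to 7 in the same length. Capitals again mark CpG.
Ablim1, chr19:57197632-57197881, minus strand: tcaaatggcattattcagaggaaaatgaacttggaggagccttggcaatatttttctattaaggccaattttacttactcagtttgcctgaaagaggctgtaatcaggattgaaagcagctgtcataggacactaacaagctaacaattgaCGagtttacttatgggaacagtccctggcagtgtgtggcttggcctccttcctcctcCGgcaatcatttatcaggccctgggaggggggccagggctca
Ltbp1, chr17:75178531-75178780, plus strand: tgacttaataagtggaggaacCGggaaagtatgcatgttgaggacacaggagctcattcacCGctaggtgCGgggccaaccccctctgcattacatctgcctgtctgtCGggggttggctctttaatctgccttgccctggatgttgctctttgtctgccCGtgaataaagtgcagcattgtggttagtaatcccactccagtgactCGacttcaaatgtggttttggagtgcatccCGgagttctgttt
Bcar3, chr3:122483319-122483568, plus strand: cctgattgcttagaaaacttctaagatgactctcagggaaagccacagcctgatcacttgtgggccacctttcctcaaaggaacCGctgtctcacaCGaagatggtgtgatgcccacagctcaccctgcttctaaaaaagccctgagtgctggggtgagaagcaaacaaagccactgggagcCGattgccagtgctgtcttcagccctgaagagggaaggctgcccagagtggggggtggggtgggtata

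A further peak lay beside a microRNA gene inside Gse1, which encodes a protein found with histone deacetylases. Its summit was 10 bp from Mir7687, and the mature sequences from RefSeq are shown because this was the only microRNA gene within 500 bp of a deep summit. Capitals mark the seed, bases 2 to 8.
mmu-miR-7687-5p, chr8:120538696-120538720, plus strand: aGGCGGGGaaccugaggcgcaggcu
mmu-miR-7687-3p, chr8:120538734-120538754, plus strand: cCACUCAGucgccccgccaca

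Deep peaks were sparse for the length of sequence open to them, and their folds were like those of other peaks away from gene ends. The sequence in which a deep peak could lie came to 583 Mb, 21.9% of the 2660 Mb between the first and the last gene of each chromosome. It carried 0.986 peaks per Mb (exact Poisson 95% interval 0.907 to 1.07), against 1.39 over all positions. Sequence inside genes and 2 to 20 kb from an end carried 1.74 peaks per Mb, and sequence within 2 kb of a gene end carried 6.76. Between genes the density was 1.91 at 2 to 20 kb, 1.24 at 20 to 100 kb and 0.354 beyond 100 kb from the nearest end. Deep gene bodies were thus denser in peaks only than sequence beyond 100 kb from any gene.

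Fold, a value of the authors, is the ChIP signal over background at the summit as their peak caller gave it. The deep peaks had a median fold of 4.79 (interquartile range 3.87 to 5.92, full range 1.70 to 15.9). Peaks 2 to 20 kb inside genes had a median of 4.66, the 3 intergenic classes 4.85, 4.70 and 4.83, and gene-end peaks 3.72. A fold of 5 or more was found at 253 deep peaks (44.0%, exact interval 39.9 to 48.2), against a background of 37.6% of all peaks. A fold of 10 or more was found at 14 (2.43%), which is near the background of 2.46% of all peaks. The whole list includes the gene-end peaks, of which 20.2% had a fold of 5 or more, while peaks 2 to 20 kb inside genes had 41.7%.

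The ChIP pileup and the background behind each fold were solved from the deposited fold and p-value. Deep summits carried a median of 29 ChIP fragments (interquartile range 22 to 37), against 30 for all peaks. Their median background was 5.19 fragments (3.73 to 6.80), against 7.35 at gene ends and 6.05 for all peaks. Gene-end summits also carried a median of 29 ChIP fragments, so deep and gene-end peaks differed in median background and not in median pileup. Medians in the other 4 classes were 30 to 32 ChIP fragments over a background of 5.19 to 6.05. Median width was 289 bp for deep peaks and 295 bp for all peaks.

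**Figure D1:**
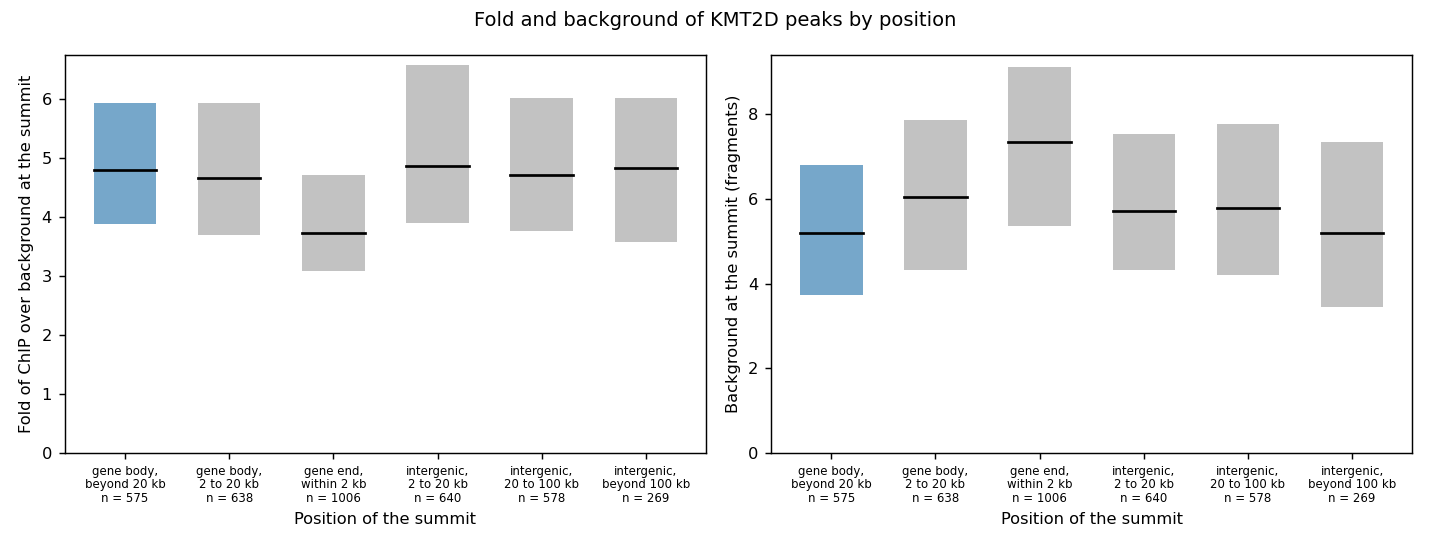
Fold of ChIP over background (left) and background in fragments (right) at peak summits, by position relative to protein-coding genes. Boxes span the interquartile range and lines mark the median over the peaks of each class. Deep gene-body peaks have a median fold of 4.79 and a median background of 5.19 fragments, while gene-end peaks have the lowest median fold, 3.72, and the highest median background, 7.35.

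Density was lower at greater distance from the gene ends, while median fold was not. At 20 to 50 kb from an end there were 309 peaks, or 1.39 per Mb (1.24 to 1.55). At 50 to 100 kb there were 161, or 1.08 per Mb (0.922 to 1.26), and beyond 100 kb there were 105, or 0.496 per Mb (0.406 to 0.601). Median folds in these 3 ranges were 4.70, 4.93 and 4.88. The median deep summit lay 47.5 kb from an end (interquartile range 31.4 to 81.5). The deepest lay 479349 bp from one, inside Nrg1, which encodes the growth factor neuregulin 1, with a fold of 3.87.

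Deep peaks lay on both sides of the gene in nearly equal number. Among 464 members whose host gene had an annotated strand, 233 lay nearer the start and 231 nearer the finish, so 50.2% were on the start side (45.6 to 54.9). The median distance from the start was 73.2 kb (interquartile range 43.5 to 140). Median fold was 4.70 on the start side and 4.88 on the finish side. The strand was not used for the other 111 members.

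Folds on either side of the 20 kb limit overlapped. The 3 members just inside it lay in Cdh1 (20017 bp, fold 3.44), Cpe (20029 bp, 5.88) and Gdpd5 (20075 bp, 5.25). The 3 gene-body peaks just outside lay in Nav1 (19881 bp, 6.43), Myo10 (19875 bp, 3.11) and Trpm1 (19873 bp, 4.50).

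**Figure D2:**
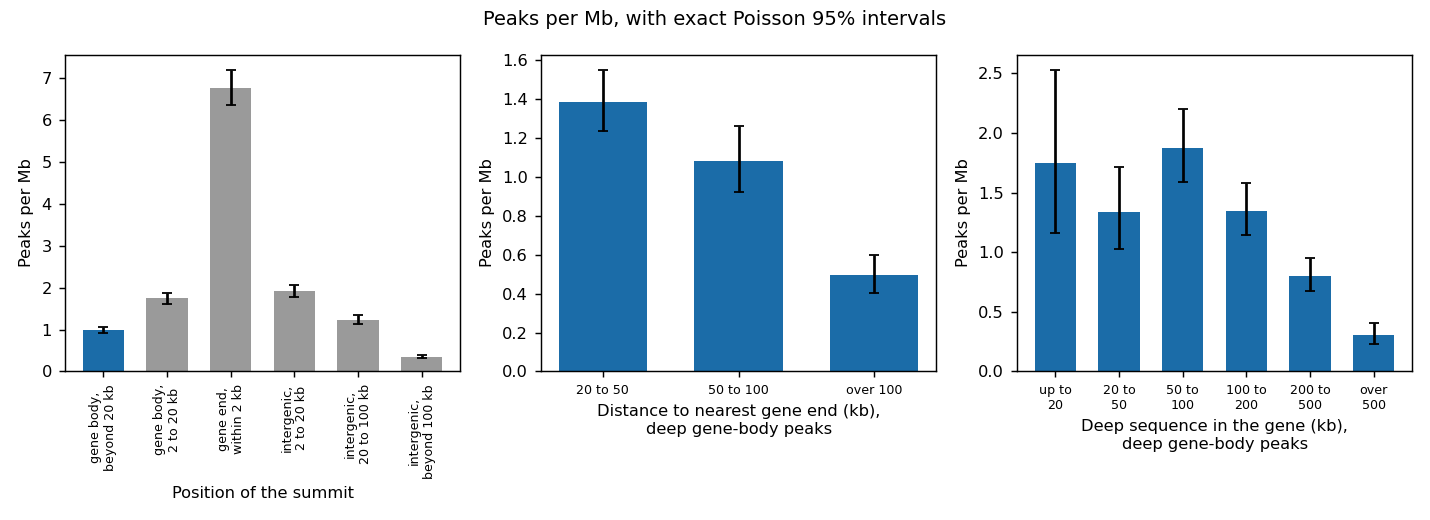
Peaks per Mb of sequence by position of the summit (left), and for deep gene-body peaks by distance to the nearest gene end (centre) and by the amount of deep sequence in the gene (right). Bars are counts over sequence and error bars are exact Poisson 95% intervals. Density is 0.986 per Mb in deep gene bodies, is 0.496 beyond 100 kb from an end, and is lowest, at 0.309, in genes with over 500 kb of deep sequence.

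The 12 highest deep peaks lay in genes of varied roles. The first was in Pcdh19, which encodes a protocadherin, at chrX:133604326-133604662, with 63 ChIP fragments over a background of 3.03 and a fold of 15.9 (exact Poisson 95% interval 12.3 to 20.3). The second was in Plec, which encodes plectin, a linker between intermediate filaments and the membrane, at chr15:76204049-76204657, with 95 fragments over 6.49 and a fold of 12.8 (10.4 to 15.6). Intervals of these 2 peaks overlap, so their order is not fixed by the counts.

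Next came a cluster of folds between 10.3 and 12.6. Camk1d, a calcium and calmodulin-dependent kinase gene, had a peak at chr2:5613858-5614282 with a fold of 12.6 (9.18 to 17.0). Ppp1r9a, which encodes the actin-binding protein neurabin, had one at chr6:4923832-4924190 with a fold of 12.6 (10.1 to 15.5). Medag, named for its part in fat cell formation, had 12.4, and Osbpl9, which encodes a sterol-binding protein, 11.6. The intervals of these 4 peaks overlap.

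Sema5a, a semaphorin gene of axon guidance, had a fold of 10.9, Sik3, a salt-inducible kinase gene, 10.8, and Dcaf5, which encodes a substrate adaptor of a ubiquitin ligase, 10.8. Runx2, the gene of a transcription factor needed for bone formation, had a peak at chr17:44709770-44710227 with a fold of 10.5 (8.13 to 13.4). Adgrg6, which encodes an adhesion receptor that Schwann cells need to make myelin, had 10.3. The 5 widest members were in Plec (1128 bp, fold 9.20), St3gal3 (1122 bp, 6.35), Htra1 (1069 bp, 6.60), Camk2b (988 bp, 1.70) and Tns1 (987 bp, 5.67).

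Deep peaks were spread over many genes, and the genes that held one were long. A gene could hold a deep peak if any of its sequence lay more than 20 kb from every gene end, which 5852 protein-coding genes did. Of these eligible genes 406 had one, which is 6.94%. A single deep peak was found in 290 genes, 2 in 76 genes and 3 or more in 40 genes. The median length was 155 kb for genes with a deep peak and 84.9 kb for all eligible genes.

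The share of genes with a deep peak was higher where there was more deep sequence, but the longest genes held few peaks for their length. It was 1.27% (23 of 1806) for genes with up to 20 kb of deep sequence, 3.50% at 20 to 50 kb and 9.75% at 50 to 100 kb. It was 13.1% at 100 to 200 kb, 16.6% at 200 to 500 kb and 16.6% (31 of 187) above 500 kb. Peaks per Mb over the same classes were 1.75, 1.34, 1.88, 1.35, 0.803 and 0.309, so density was lowest where the share was highest.

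The 50 genes with most deep sequence, each with over 1 Mb of it, made up 11.5% of the deep sequence and held 1.04% of the gene and peak pairs. Their 6 peaks over 67.3 Mb gave 0.0892 per Mb (0.0327 to 0.194), against 0.985 over all eligible genes. These peaks lay in 4 genes: Tenm2 (fold 4.73) and Tenm3 (4.04), which encode teneurin adhesion receptors, Ptprt (5.01 and 3.38), a receptor phosphatase gene, and Nrg1 (5.04 and 3.87). The genes without one included many of neurons and synapses, among them Ptprd, Cntnap2, Lsamp, Dlg2, Nrxn3, Csmd1, Robo2 and Rbfox1, and also the dystrophin gene Dmd. No RNA was measured, so whether these genes are transcribed in HT22 cells was not tested.

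A peak at the gene's own start was found for 25 of 326 genes with a deep peak and an annotated strand, 7.67% (5.02 to 11.1). It was found for 203 of 4286 eligible genes without a deep peak, 4.74% (4.12 to 5.42). These intervals overlap. Most genes with a deep peak therefore had none at their start, and a peak at the finish was rarer still, at 2 of 326 (0.613%) and 22 of 4286 (0.513%).

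Several genes carried a row of deep peaks. Pakap, which encodes a protein that anchors protein kinase A, had the most, with folds of 4.35, 8.005, 5.30, 5.69, 3.27 and 5.27 from its start to its finish. Dlgap1, which encodes a scaffold of the postsynaptic density, had 5, with folds of 5.47, 4.53, 2.72, 5.23 and 6.27, all in the last stretch of the gene, from 88.1% to 97.2% of its length. A further 10 genes had 4 each: Camk2b, Kirrel3, Lrig1, Itgb5, Gse1, St3gal3, Actn1, Zfp469, Tex14 and Ltbp1.

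These 4-peak genes differed in how evenly their peaks were matched. Kirrel3, an immunoglobulin-family adhesion gene, had folds of 8.36, 7.11, 5.11 and 4.27. Itgb5, the integrin beta 5 gene, had 1 peak of 7.34 (5.06 to 10.3) beside 3 of 2.91 to 3.93. St3gal3, a sialyltransferase gene, had 3 peaks of 5.43 to 6.35 and 1 of 2.81.

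The Camk2b row was unlike the rest. Camk2b encodes the beta subunit of CaMKII, a kinase of synaptic plasticity, and its first peak, at chr11:6000362-6000976, had a fold of 10.3 (8.19 to 12.8) over a background of 6.76 fragments. The other 3, between positions 6005749 and 6011255, had folds of 1.70, 1.80 and 2.52 over backgrounds of 131, 128 and 82.6. They were the only members with a background above 20 fragments, so the input was high there too, and the part of this in their folds was not tested. Without them Camk2b has 1 deep peak.

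Some neighbouring summits formed runs. Deep summits were joined to the next when they lay within a fixed joining distance, one between the 5 kb and the 25 kb that were tried as alternatives. This gave 57 runs that held 130 members (22.6%), while 445 stood alone. There were 45 runs of 2, 8 of 3 and 4 of 4. Besides Camk2b, the runs of 4 lay in Lrig1, which encodes a brake on epidermal growth factor receptors (7.64, 7.49, 4.66 and 3.73 over a span of 7824 bp), in Actn1, the alpha-actinin 1 gene (3.50, 4.36, 5.25 and 6.06 over 9473 bp), and in Dlgap1 (5.47, 4.53, 2.72 and 5.23 over 26829 bp). A run of 3 lay in Plec, with folds of 9.20, 5.30 and 12.8. Single summits were the usual case. The median distance from a deep summit to the next peak of any class was 61070 bp, against 39284 bp over all peaks. Wide spacing was not particular to deep peaks. The median was 69695 bp for gene-end peaks, 51363 bp for intergenic peaks beyond 100 kb and 31935 bp for peaks 2 to 20 kb inside genes. It was lower still in the remaining classes.

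**Figure D3:**
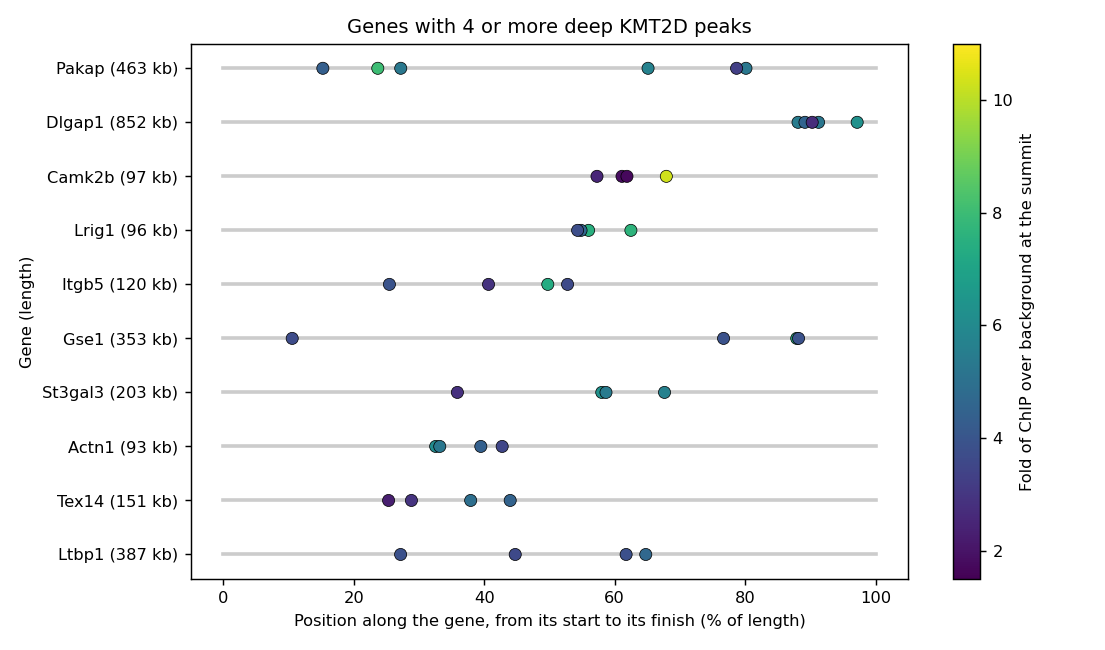
Positions of deep KMT2D peaks along genes with 4 or more of them, as percent of gene length from start to finish, for the 10 such genes with an annotated strand. Each point is a summit and its colour is the fold of ChIP over background. The Dlgap1 peaks lie between 88.1% and 97.2% of the gene, the Pakap peaks are spread along it, and Camk2b has 1 peak of fold 10.3 beside 3 of 1.70 to 2.52.

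To describe which kinds of gene held deep peaks, 18 lists of genes were read against all eligible genes. Of all eligible genes 6.94% held one, at 0.985 peaks per Mb. The lists were drawn up with earlier results of these data known. Values above those of all eligible genes are therefore descriptive only. Shares lay above 6.94% in 13 of the 18 lists, and peaks per Mb lay above 0.985 in 10. The WNT list is in both counts, although it includes Tcf4, whose place there is doubtful, as described below. Genes shared between lists count in each, among them Ltbp1, Zbtb20, Tcf4 and Tcf7l1. Of the lists with a higher share, the matrix, YAP/TEAD, lipid, WNT and receptor kinase lists have an exact share interval that includes 6.94%. The same holds for the synapse, membrane traffic and hippocampal lists. The share depends on gene length, so the density is given beside it. Density depends on length too, and neither measure was matched for it. Median deep sequence per gene was 48.2 kb in the TGF-beta and BMP list, 83.8 kb in the integrin list, 151 kb in the actin list and 464 kb in the synapse list. Eligible genes with 50 to 100 kb of deep sequence, where the integrin median falls, had a share of 9.75% and 1.88 peaks per Mb. Those with 100 to 200 kb, where the actin median falls, had 13.1% and 1.35 per Mb.

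Genes of cell adhesion and the actin cytoskeleton were among the highest by both measures. Integrin and focal adhesion genes had a deep peak in 6 of 26 (23.1%, exact interval 8.97 to 43.6), at 4.18 peaks per Mb (2.23 to 7.15). They were Src, a tyrosine kinase gene (7.36), Itgb5 (7.34), Lpp, which encodes a LIM-domain protein of adhesions (6.95), Nedd9, a docking protein gene (5.91), Tns1, the tensin 1 gene (5.89), and Itgav, the integrin alpha V gene (4.71), each with its highest fold. Itgb5 alone gave 4 of the 13 peaks. The adhesion kinase gene Ptk2, the vinculin gene Vcl, the paxillin gene Pxn and the integrin gene Itgb1 had no deep peak. Pxn (fold 3.22) and Itgb1 (2.74) had a peak within 2 kb of a gene end.

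Actin and myosin genes had a deep peak in 9 of 33 (27.3%, 13.3 to 45.5), at 2.61 per Mb. The highest folds were in the formin gene Fmnl2 (6.24, 4.55 to 8.35), in Actn1 (6.06) and in Ablim1, an actin-binding LIM protein gene (5.76).

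Matrix and growth factor genes followed. Extracellular matrix genes had a deep peak in 6 of 36 (16.7%, 6.37 to 32.8), at 2.13 per Mb, led by the collagen genes Col8a1 (9.45, 6.47 to 13.4) and Col4a2 (6.78) and the perlecan gene Hspg2 (6.60). TGF-beta and BMP signalling genes had one in 5 of 22 (22.7%, 7.82 to 45.4), at 4.999 per Mb (2.16 to 9.85). By role these were the ligand gene Bmp6 (6.18), Ltbp1, which encodes a protein that holds TGF-beta in latent form in the matrix (4.68), the co-receptor gene Tgfbr3 (3.69), the signal transducer gene Smad3 (3.74) and the ubiquitin ligase gene Smurf1 (7.81, 6.13 to 9.83). Ltbp1 alone gave 4 of these 8 peaks. The receptor genes Tgfbr1, Tgfbr2, Bmpr1a and Bmpr2 and the common mediator gene Smad4 had none.

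Transcription factor genes had a deep peak in 24 of 85 (28.2%, 19.001 to 39.04), at 1.91 per Mb. Actin and myosin genes had a larger share with a limit of 10 kb, 32.4% against 29.9%, so the order of these lists is not fixed. Runx2 (10.5), Nfatc1, a calcium-responsive factor gene (8.83, 6.51 to 11.7), and Nfix, a nuclear factor I gene (7.66, 5.92 to 9.77), were highest. Mef2c had 7.20 and Mecom 6.87. Runx1, Foxp1, Meis1 and Zeb2 had no deep peak, although Foxp1 had a peak of fold 3.32 within 2 kb of a gene end. The list was drawn up as long genes for transcription factors, and it held 20.4 Mb of deep sequence.

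YAP/TEAD and Hippo pathway genes had a deep peak in 3 of 22 (13.6%, 2.91 to 34.9), at 2.18 per Mb, in Vgll4, which encodes a TEAD cofactor (6.28), Wwtr1, the TAZ gene (4.86), and Crim1 (4.15). The list's central genes Yap1 and Tead1 had none. Lipid, glucose and hypoxia genes had one in 4 of 34 (11.8%), at 1.25 per Mb: the fat cell regulator gene Pparg (5.44), the phosphatidate phosphatase gene Lpin1 (5.07), the hexokinase gene Hk1 (4.29) and the lipoprotein receptor gene Lrp1 (3.26). The WNT and planar polarity list had one in 2 of 23 (8.70%), in Tcf4 (5.91) and Tcf7l1 (3.39). Tcf4 encodes a basic helix-loop-helix factor and is not Tcf7l2, the WNT effector also called TCF4, which had no deep peak. Its place in this list is therefore doubtful, and without it only Tcf7l1 would remain.

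Synaptic and axon guidance genes had shares near or above that of all eligible genes and low densities. They are long, with a median of 464 kb and 330 kb of deep sequence. Eligible genes with 200 to 500 kb of it carried 0.803 peaks per Mb, and those above 500 kb carried 0.309. Synapse and ion channel genes had a deep peak in 8 of 68 (11.8%, 5.22 to 21.9), but at 0.376 per Mb (0.210 to 0.620) over 39.9 Mb. They were led by the glutamate receptor gene Gria1 (6.49), Dlgap1 (6.27) and its relative Dlgap2 (6.13). Axon guidance and neuronal adhesion genes had one in 4 of 59 (6.78%, 1.88 to 16.5), at 0.165 per Mb (0.0536 to 0.385): Pcdh19, Sema5a, the plexin gene Plxna2 (7.52) and the netrin gene Ntn4 (4.91). So 2 of the 12 highest deep peaks lay in a list that was sparse for its length. Hippocampal neuron markers had one in 2 of 16, Camk2b and Zbtb20 (5.45), at 1.35 per Mb (0.438 to 3.15). Camk2b gave 4 of these 5 peaks, 3 of them those of high background described above.

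Chromatin regulators had a deep peak in 1 of 57 (1.75%, 0.0444 to 9.39), at 0.201 per Mb (0.00508 to 1.12). Both intervals include the values of all eligible genes. The single gene was Chd9, which encodes a chromatin remodeller, with a fold of 3.05 (2.15 to 4.21). Kmt2d itself, its relatives Kmt2a and Kmt2c and the demethylase gene Kdm6a had no deep peak. Kmt2a (fold 23.5), Kmt2d (4.62) and Kmt2c (2.47) each had a peak within 2 kb of a gene end, however. Kmt2d has only 2.41 kb of deep sequence in which a deep peak could lie. The membrane traffic list had a deep peak in 5 of 31 genes (16.1%) at 0.720 per Mb, led by Cux1 (5.32), Snx29 (4.88) and Vps13d (4.799). Cux1 also encodes a homeobox factor, so its place in this list is doubtful. Receptor tyrosine kinase and MAP kinase genes had a deep peak in 3 of 35 (8.57%) at 0.672 per Mb: Map3k5 (5.33), Igf1r (5.26) and Gab1 (4.72).

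No deep peak was found in 3 lists with few eligible genes: early response regulators (0 of 3), progenitor and glial markers (0 of 7) and mesenchymal markers (0 of 10). These counts are too small to set the lists apart from the 6.94% of all eligible genes. A separate short set of defining markers for neurons, for progenitors and glia and for mesenchymal cells had no deep peak and no gene-end peak in any of its 22 genes, of which 8 were eligible. A list of peaks carries no RNA, so it does not check the identity of the cells.

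**Figure D4:**
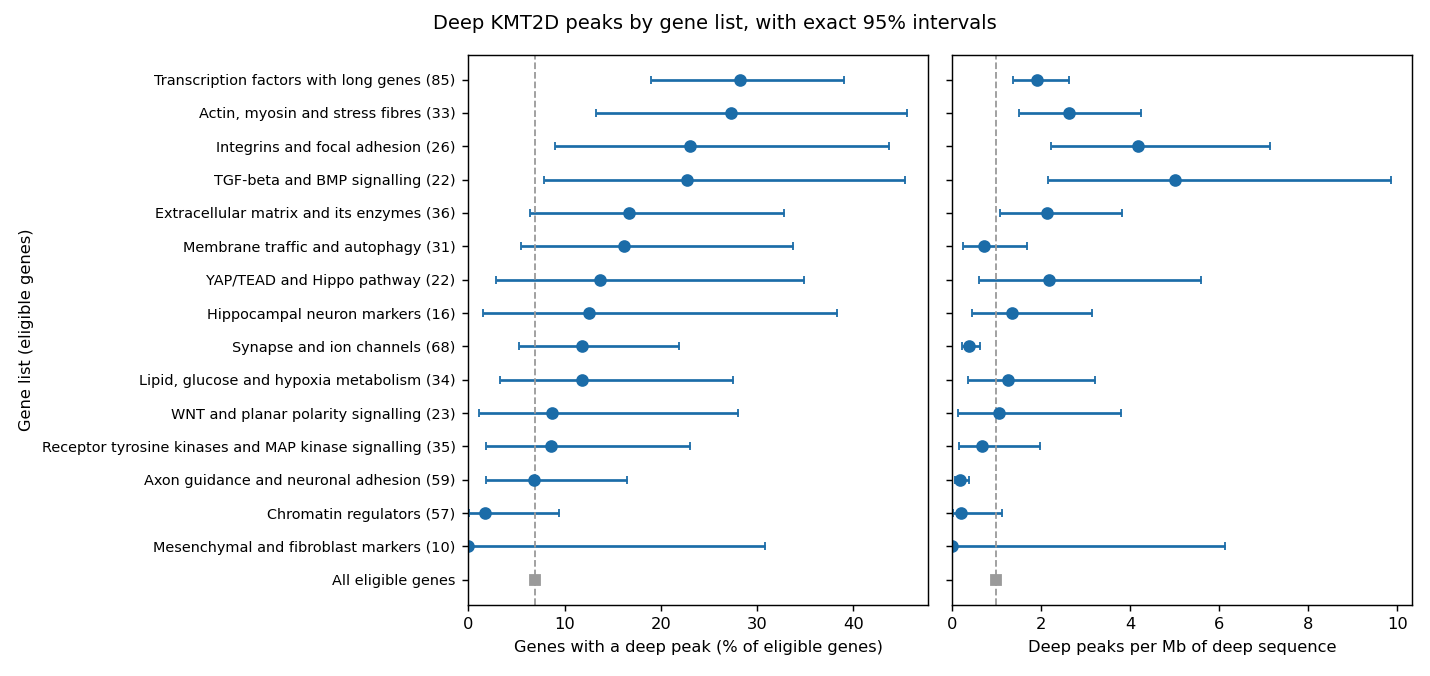
Share of eligible genes with a deep KMT2D peak (left) and deep peaks per Mb of deep sequence (right) for the gene lists described in the text with 10 or more eligible genes, in order of share. Points are values with exact 95% intervals, and the square and dashed line mark all eligible genes, at 6.94% and 0.985 per Mb. Transcription factor, actin and integrin genes lie right of the line in both panels, while synaptic genes lie right of it by share (11.8%) and left of it by density (0.376 per Mb).

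A small number of deep peaks lay at annotated internal promoters. RefSeq promoter windows held 938 starts of protein-coding transcripts that lie in deep sequence, and 20 of them had a KMT2D summit within 500 bp, which is 2.13% (exact interval 1.31 to 3.27). The share was 2.96% (328 of 11088) for starts at the outer end of genes and 0.549% (7 of 1276) for starts of lncRNA genes in deep sequence. These 7 lncRNA starts belonged to 5 genes and 5 members, so more than 1 of them lay at the same summit. The 20 starts belonged to 19 genes and 19 members. Another 543 members had no such start within 500 bp, and the 13 members on chromosome 18, where starts were not used here, were left out.

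The peaks at internal starts had lower folds than the rest. Their median fold was 3.54 (range 2.50 to 6.65), against 4.82 for the other 543 members. Their median pileup was 25 fragments, against 29, and their median background 6.49, against 5.19. The same 2 features, low fold and high background, were seen for gene-end peaks.

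The starts with a summit were rich in CpG. In windows of 300 bases, 250 before and 50 after the start, the median was 19.5 CpG at the 20 starts with a summit and 6 at internal starts without one, and median GC content was 64.2% and 50.7%. At least 15 CpG were found in 15 of the 20 windows, against 24.2% of all internal starts. The other 5 windows had fewer than 10, among them the Ablim1, Ltbp1 and Bcar3 starts printed above. At outer starts the medians were 26 CpG with a summit and 9 without.

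The summits lay close to the printed starts. In Ablim1 the summit was 2 bp upstream of the start, with a fold of 5.03 (3.64 to 6.78), and that start lies 118 kb inside the gene. In Palld, which encodes the actin-bundling protein palladin, it was 70 bp upstream with a fold of 4.34 (2.85 to 6.38), 312 kb from the outer start. In Epb41l1, which encodes a membrane skeleton protein, it was 8 bp downstream with a fold of 3.40 (2.21 to 5.03).

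The remaining 4 printed starts had summits 43 to 138 bp upstream. Folds were 4.04 in Mia2, which encodes a protein of export from the endoplasmic reticulum, 3.73 in Bcar3, a gene of adhesion signalling, 3.61 in Ltbp1 and 3.54 in Phldb2, which encodes a protein that tethers microtubules at adhesions. The strongest of all 19 was in Cbx5, the gene of heterochromatin protein HP1 alpha, with 6.65 at 335 bp downstream. The weakest was in Zfhx3, a homeobox factor gene, with 2.50 at 500 bp downstream, the limit of the window. Only Sertad2 (3.15) and Dnmbp (2.87) of the 19 genes had a peak at the outer start as well. A start peak is uncommon in general, being found in 4.94% of all eligible genes with an annotated strand.

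Short letter matches in the 300-base windows were counted on both strands, as a description. The AP-1 letters TGANTCA were found in 3 of the 20 windows (15%), those of Palld, Tnpo1 and Epb41l1, against 9.06% of all internal starts and 7.81% of all promoters in the table. The SP/KLF letters GGGCGG were found in 9 of 20 (45%), against 30.8% and 35.6%, and the TEAD letters GGAATG in 4 of 20 (20%), against 16.5% and 14.7%. Other letters were below all internal starts: RUNX at 5% against 16.4%, SOX at 5% against 15.7% and CEBP at 5% against 11.3%. The E-box letters CAGCTG were at 20% against 18.9%. Letters found in 0 of the 20 windows included those of CRE, ETS, CTCF and the E-box CACGTG. These letters are rare at all internal starts too, at 1.07%, 1.07%, 2.99% and 4.26%, so 0 of 20 is near those shares. Each share rests on only 20 windows and is coarse, and a match of letters does not show a bound site.

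**Figure D5:**
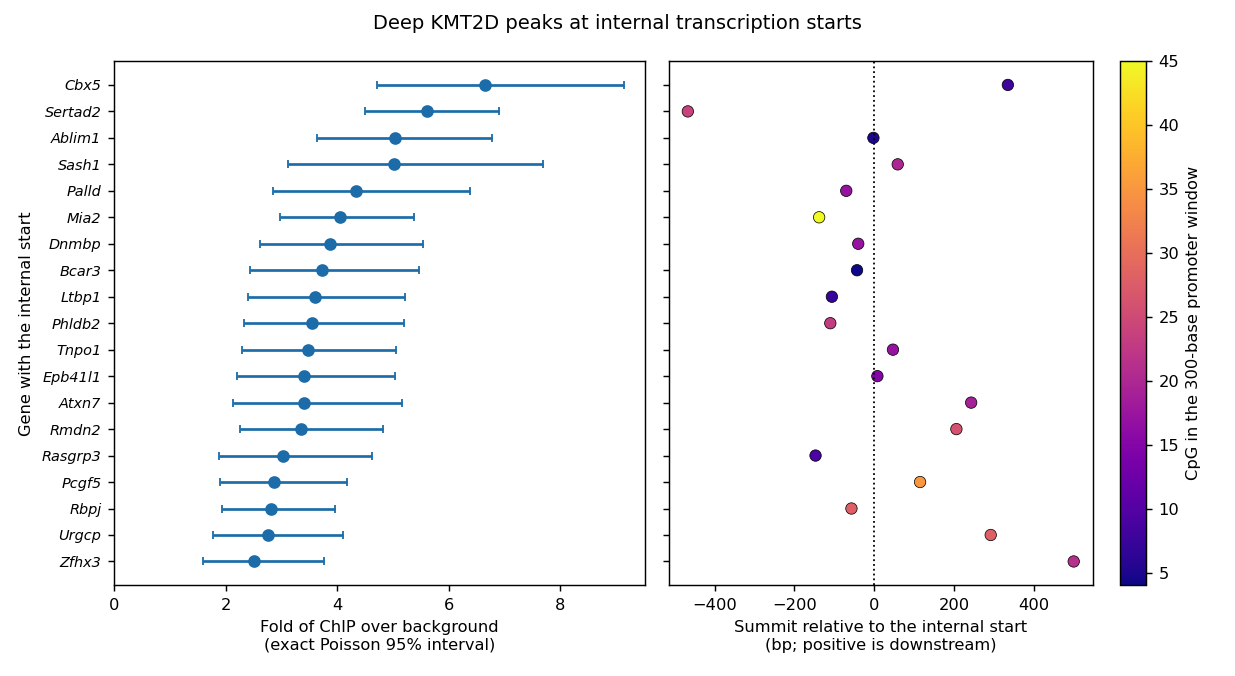
Fold of ChIP over background with its exact Poisson 95% interval (left) and position of the summit relative to the internal start in bp (right) for the 19 genes with a deep KMT2D summit within 500 bp of an internal protein-coding start. Colour gives the number of CpG in the 300-base window. Folds run from 2.50 in Zfhx3 to 6.65 in Cbx5, and the Ablim1 summit lies 2 bp from its start with few CpG.

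Few deep summits lay at small RNA genes. None lay within 500 bp of a tRNA gene among the 562 members on chromosomes where tRNA genes were listed, so a share of at most 0.534% is allowed, against 106 of 3643 peaks of the whole list (2.91%). Any small RNA gene lay that close to 5 of 575 members (0.870%), against 158 of 3706 peaks (4.26%). How many small RNA genes lie in deep sequence at all is not given here, so these shares do not allow for it. Peaks 2 to 20 kb inside genes had 0.475% at tRNA genes and 1.25% at any small RNA gene, and none of the intergenic peaks beyond 100 kb lay at either, which allows up to 1.12%. Of the 5, 4 lay in Tex14, a gene of the bridges between germ cells, at genes of the U3 RNA, which guides cleavage of the ribosomal RNA precursor: Rnu3b4 (4.95), Rnu3b2 (4.48), Rnu3b3 (2.94) and Rnu3b1 (2.30), 25 to 134 bp away. All 4 deep peaks of Tex14 are therefore at U3 genes. These genes are copies of a family, so which copy the reads came from is uncertain. The fifth was the Gse1 peak at Mir7687, with a fold of 7.33 (5.24 to 9.99).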

How the data were processed

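KMT2D ChIP and input libraries of wild-type HT22 cells, 1 of each, gave 1 deposited peak list. The submitters' processing notes name mm10 as the build and Bowtie2, Picard and MACS2 as tools. Their versions and settings, and how many reads each library held, were not given in the sources used here. Per the file's values, the authors deposited for each peak a score, a fold (ratio of ChIP to background), and p- and q-values as −log10, with a lowest −log10 q of 1.32. The deposited score was not used further. The list carries no per-sample values, so depth was read per peak: the ChIP pileup and background were solved from the deposited fold and −log10 p under the Poisson rule of the named caller, with a tolerance of 0.001, for all 575 members. The formulas are knowledge of MACS2, not stated by the submitters.

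Genes came from a RefSeq table of GRCm38.p6 (49595 genes on chromosome sequences, 21774 protein-coding), and starts and microRNAs from RefSeq sequence tables of that build. Strand was taken from those tables. No genome sequence was used, so the planned sequence at summits and the exon or intron at each summit were not analysed here. The promoter windows were chosen in their place after the data were seen. Members and lists were chosen with earlier results of these data known, and all 826 list entries matched a gene.

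Intervals are exact 95% ones, binomial for shares and Poisson for densities and folds (background held fixed), and a count of 0 allows 3 counts of the total. Reads are not independent molecules, so these cover counting error only. No test was run. Named genes were the hosts of the 12 highest and 5 widest deep peaks, of the 3 peaks on each side of the 20 kb limit, of members at small RNA genes and of the longest runs, the 10 genes with most deep peaks and up to 3 genes per list. One gene that this rule takes and 1 of the 18 lists are not reported here. Any further gene was picked with its values in view. The solving of pileups, the placing of summits relative to genes and the amount of deep sequence were first tested on simulated data. The other procedures were not tested in this way. Alternatives changed the distance, peak threshold, gene set, chromosomes, joining distance and start window. Python 3.11.15, numpy 2.4.6, pandas 2.3.3, scipy 1.17.1 and matplotlib 3.10.9 were used.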

Additional observations from a re-analysis of the deposited data

How the results depend on the processing

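The main results were recomputed: the number of deep peaks, their median fold, the genes with one, the gene lists above all eligible genes, and the runs. The number of deep peaks, 575, was 266 with a limit of 50 kb, 295 among the stronger peaks (−log10 q not below its median) and 253 with fold of at least 5. Genes with a deep peak, 406, were 191 at 50 kb and 233 among the stronger peaks. The other alternatives gave 533 to 815 deep peaks, the highest with a limit of 10 kb. Median fold, recomputed under 7 of the alternatives, was 4.74 to 5.82 for deep peaks and above that of all other peaks, gene-end peaks included; among the stronger peaks the gap was smallest, 5.82 against 5.73. Lists above all eligible genes by share numbered 10 to 16, against 13, with Tcf4 kept in the WNT list throughout. At 50 kb the TGF-beta and BMP list stood at 50%, and the YAP/TEAD and Hippo and the chromatin lists at 0%, with 8.26% for all eligible genes. Fewer genes are eligible at that limit, so these shares rest on fewer genes than those at 20 kb. Among the stronger peaks transcription factor genes stood at 15.3%, below integrin (19.2%) and actin (18.2%) genes, with 3.98% for all eligible genes. Runs numbered 38 at 5 kb and 73 at 25 kb, against 57. Internal starts with a summit numbered 16, 23 and 28 in windows of 250, 1000 and 2000 bp, against 20, windows chosen after seeing the data. The alternative windows for sequence at summits were not run, since no genome sequence was used. No paired analysis was possible because there was 1 ChIP and 1 input library. The median deep summit rests on 29 ChIP fragments, which sets the width of the intervals on a fold.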

Other observations

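The share of deep peaks on a chromosome is given beside that of all peaks. Chromosome X held 1.74% of deep peaks and 1.46% of all peaks, and chromosome 15 held 7.30% of deep peaks and 6.93% of all peaks. Chromosome 17 held 6.09% of deep peaks and 5.80% of all peaks. Chromosome 8 held 8% of deep peaks and 5.99% of all peaks, and chromosome 11 held 7.48% of deep peaks and 9.93% of all peaks. Chromosomes 15, 17, 11 and 8 had the highest densities, with 1.79, 1.77, 1.65 and 1.54 deep peaks per Mb of deep sequence, and chromosome X had the lowest above 0, 0.374 (exact Poisson 95% interval 0.179 to 0.687). The 10 members on X had a median background of 3.18 fragments and a median fold of 5.58, and the 42 on chromosome 15 had a median background of 6.49 and a median fold of 4.82. The part of the background in these densities was not tested.

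The deep summits within 500 bp of a lncRNA start lay in Coro1c (fold 5.21), which encodes an actin-binding coronin, in Myof (3.42), Map6 (3.42), Ngef (3.41) and Tcf7l1 (3.39). All but the first were below the median fold of deep peaks, 4.79.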
